A study of Schizosaccharomyces pombe with 2 samples.

Results

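Genes for zinc and copper transport and storage were described in fission yeast (Schizosaccharomyces pombe) that lacks the corepressors Tup11 and Tup12. The set holds 7 genes of the 4956 gene features on the array, chosen by name: the zinc importer gene zrt1 (SPBC16D10.06), fet4 (SPBP26C9.03c), zhf1 (SPAC23C11.14), zym1 (SPAC22H10.13), ctr4 (SPCC1393.10, listed on the array as ctr4), ctr5 (SPAC1142.05) and ctr6 (SPBC23G7.16). All 7 were found, and each had a value on both arrays. The mutant is marked Tup11,12D in the labels, where D was taken to mean that both genes are deleted, and its wild-type control is marked WT. Both grew in rich medium to logarithmic phase. For array 1 the labels name YES medium at 30 degrees for the mutant. Mating type, auxotrophic markers and the number of mutant clones are not known here. The strains were hybridised together on 2 spotted arrays, with the mutant in Cy3 on array 1 and in Cy5 on array 2. A separate RNA preparation went onto each array, which makes n = 2 throughout.

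Zinc and copper are needed by many enzymes but are toxic in excess, so cells adjust their uptake, delivery and storage. In fission yeast the zinc finger protein Loz1 represses zinc uptake genes, zrt1 among them, when zinc is plentiful. The copper-sensing factor Cuf1 activates the copper uptake genes ctr4, ctr5 and ctr6 when copper is scarce. Tup11 and Tup12 are related to budding yeast Tup1, which represses transcription after being recruited by DNA-binding proteins.

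Which column block holds which strain had to be worked out. Local background averaged 1.80 and 753 in the first block of columns (array 1, then array 2), and 408 and 12.5 in the other, so the dyes had changed places between the blocks. The first block was read as the mutant on both arrays, since the titles name the mutant first and the authors' deposited ratios run first over second. That reading is likely but not stated, and were it wrong every sign given here would turn. Across the tested features, which are not independent replicates, the ratios of the arrays so read had a Pearson correlation of 0.55. A feature named tup1, which matched no gene in the name table, stood at -2.11 ± 0.36 (limma adjusted p = 0.000454), and the tup11 feature stood at 0.95 and -0.11 on the arrays (adjusted p = 0.489). Where the probes lie within these genes is not known here, so the deletion could not be checked, and tup12 was not analysed here. Median gene signals above background were 1340 and 1852 in the mutant channel, and 3853 and 1344 in the wild-type channel.

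Of the 7 genes, 1 fell and 1 rose in the mutant, both of them genes for metal importers of the cell surface. The zinc importer gene zrt1 was 2.10-fold lower. The gene fet4, which encodes an iron and zinc transporter, was higher, but its signal passed the background limit on 1 of 2 arrays in the mutant and on neither in wild type, so its size is uncertain. The copper importer genes ctr4 and ctr5 were lower on both arrays after loess normalisation, without passing the test, and array 1 turned sign with median centring. Genes for zinc sequestration (zhf1 and zym1) and for vacuolar copper (ctr6) had means between -0.04 and 0.17. The highest of these, that of zym1, comes from signals under the background limit in both strains on both arrays. Each ratio is log2 of mutant over wild type, given as the mean and SD of both arrays, and a gene passed at a Benjamini-Hochberg adjusted p of 0.05 over the 4813 features with a value on both arrays. Of those features 3.35% passed, 2.37% higher and 0.977% lower in the mutant.

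**Figure D1:**
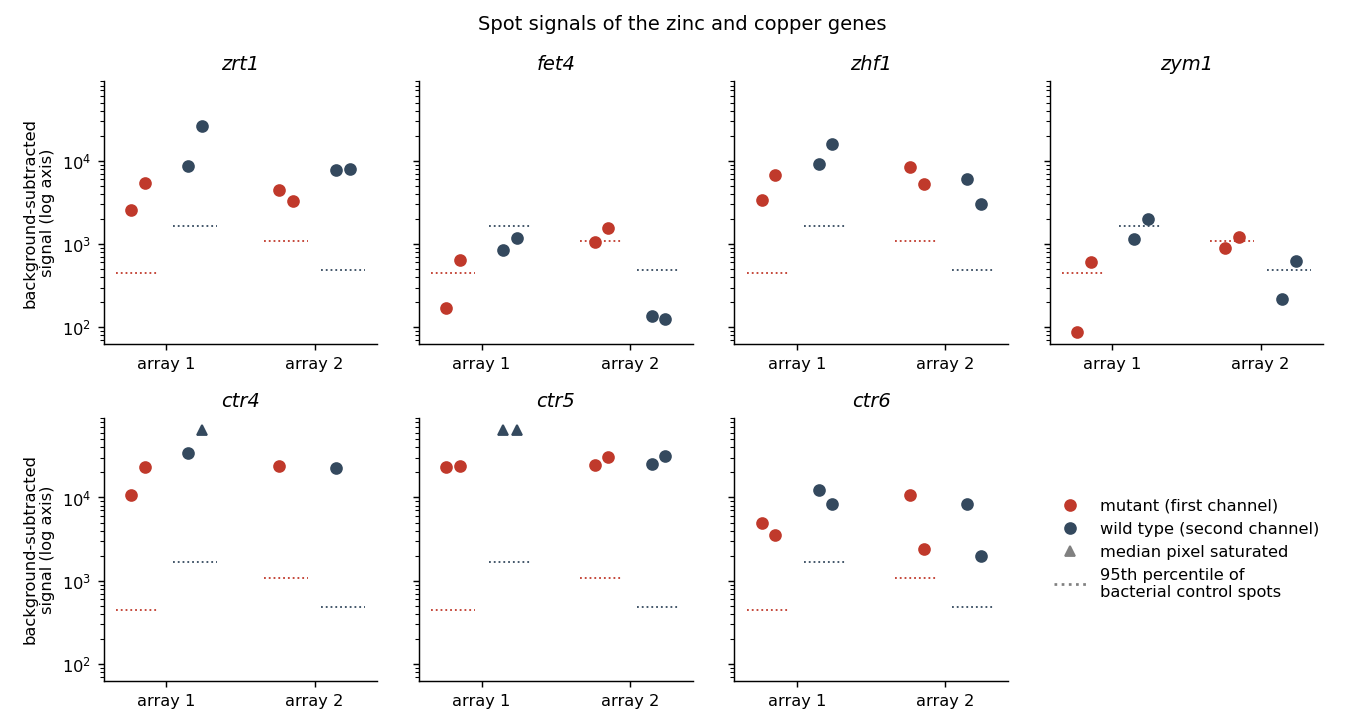
Background-subtracted signals on a log axis for each spot used, with mutant to the left of wild type on each array; dotted lines mark the 95th percentile of bacterial control spots in that channel, and triangles mark a saturated wild-type median. The wild-type spots of fet4 lie under their dotted line on both arrays, while zrt1 lies above it in both strains. Signals of different channels differ in dye and scale, so only the normalised ratios compare strains.

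Zrt1 is the high-affinity zinc importer of the plasma membrane, a member of the ZIP family. On array 1 its spots read 2542.5 and 5408 in the mutant, against 8604 and 25829.5 in wild type. On array 2 they read 4468 and 3263 in the mutant, against 7784 and 8049 in wild type. These are background-subtracted medians before dye normalisation, and all 8 exceeded the background limit of their channel. After normalisation the log2 ratio of zrt1 was -0.72 on array 1 and -1.42 on array 2, which is 1.65-fold and 2.67-fold lower in the mutant. Each of its 4 spots was below 0, from -1.65 to -0.41. The mean was -1.07 ± 0.49 (n = 2, limma adjusted p = 0.0356), and the 95% interval of the fold was 1.48 to 2.99. It ranked 29 from the lowest of the 4813 features. The arrays shared the direction and differed in size. In RNA from whole cultures, a lower level in all cells and a change in a share of the cells cannot be told apart. The call was lost with median centring (adjusted p = 1.0), plain background subtraction (0.178), scale normalisation between arrays (0.0641), the authors' deposited ratios (0.299) and the spots of the first print set alone (0.222), over a range of 6.6e-05 to 1.0 in 13 alternatives, all of which placed it lower in the mutant.

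Fet4 is a plasma membrane transporter that carries iron and zinc, related to the low-affinity iron transporter of the same name in budding yeast. On array 1 its spots read 170 and 641.5 in the mutant, against 855 and 1175.5 in wild type. On array 2 they read 1058 and 1536 in the mutant, against 138 and 127 in wild type. Wild type thus stayed under the background limit on both arrays, and the mean of the mutant spots passed the limit on array 2 (1297 against a limit of 1076.5) and not on array 1 (405.75 against 442.125). The log2 ratio of fet4 was 1.03 on array 1 and 1.08 on array 2, with its 4 spots between 0.78 and 1.38. Its fitted mean was 1.05 ± 0.04 (n = 2, limma adjusted p = 0.0178), a difference between signals mostly under the limit and not an exact level. With wild type under the limit, a fold of 1.75 was computed from the mutant's mean over both arrays. That mean was set against, on each array, the higher of the measured wild-type signal and the lowest signal that counted as above background. On array 1 the mutant was itself under the limit, so 1.75 is not a lower limit of the fold. The 95% interval of the fitted fold began at 1.53, and mean signals gave 1.51-fold. The single-channel values behind the fold of 1.75 are open to dye bias beyond what the dye swap balances.

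The close agreement of the fet4 array values does not measure its whole error. Its duplicate spots differed by 0.43 on array 1 and 0.61 on array 2, wider than the median gap over all features of 0.29 and 0.33. The mean signals of the spots in place of medians gave a log2 ratio of 0.59, and plain background subtraction gave 1.47 without passing (adjusted p = 0.0652). Median centring (adjusted p = 1.0), the authors' deposited ratios (0.223) and the first print set alone (0.181) also ended the call, in a range of 0.000188 to 1.0 over 12 alternatives. Without spots that were dim in either channel fet4 had no value.

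**Figure D2:**
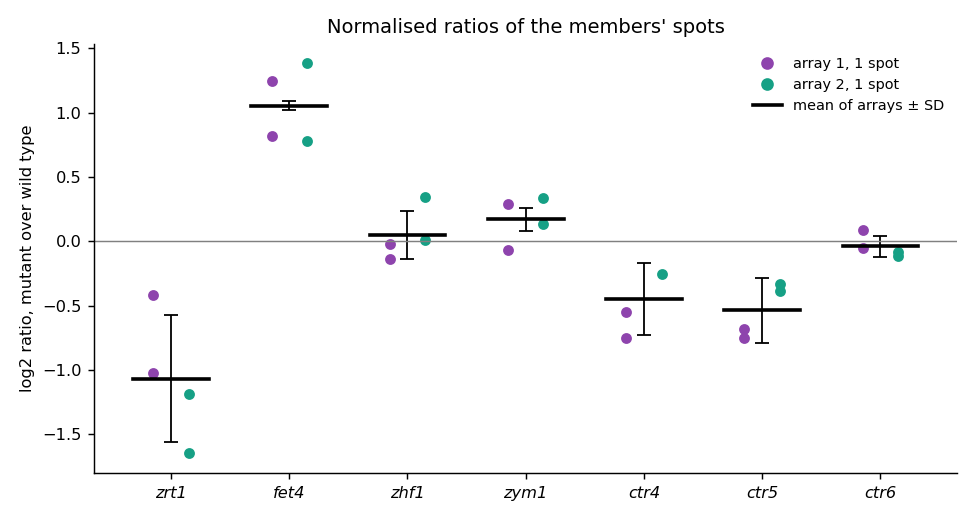
Normalised log2 ratio of mutant over wild type for each spot used, by gene and array; black bars are the mean of the arrays and whiskers the SD. All spots of zrt1 lie below 0 and all spots of fet4 lie between 0.78 and 1.38, while ctr4 and ctr5 lie below 0 and the other genes straddle it.

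After loess normalisation zrt1 and fet4 had opposite signs on each array. On array 1 zrt1 stood at -0.72 and fet4 at 1.03, and on array 2 they stood at -1.42 and 1.08. The array 1 value of fet4 comes from signals under the background limit in both strains. With median centring in place of loess, fet4 stood at 0.02 on array 1 and 1.53 on array 2. With that setting zrt1 stood at -0.33 and -1.61. Over all tested features, 30.1% were above 0 on both arrays and 29.6% below 0 on both, and of the 7 genes 2 were above, 3 below and 2 differed in sign.

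**Figure D3:**
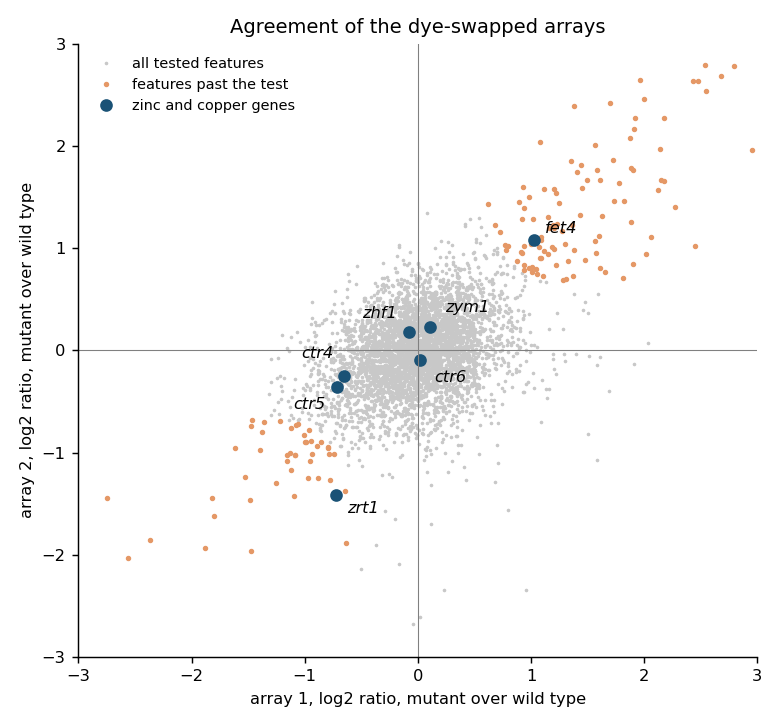
Log2 ratio of mutant over wild type on array 1 (x axis) and array 2 (y axis) for all tested features in grey, features past the test in orange and the 7 zinc and copper genes in blue; 14 features lie outside the axes at 3 in either direction. The gene zrt1 lies in the lower left and fet4 in the upper right, while ctr4 and ctr5 lie below 0 on both axes within the grey cloud.

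Zhf1 is a cation diffusion facilitator that moves zinc into the endoplasmic reticulum and is needed for tolerance of high zinc. Its mean spot signal was 5046 in the mutant and 12601 in wild type on array 1, and 6797 in the mutant and 4554 in wild type on array 2. The log2 ratio of zhf1 was -0.08 on array 1 and 0.18 on array 2, with a mean of 0.05 ± 0.18 (adjusted p = 0.942). The 95% interval of that mean ran from -0.40 to 0.50, so changes within it were not detectable with 2 arrays.

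Zym1 is a metallothionein, a small cysteine-rich protein that binds zinc. Its mean spot signals were 345 and 1051 in the mutant and 1588 and 418 in wild type, all under the background limits of their channels. The ratio of zym1 was 0.11 on array 1 and 0.23 on array 2 (mean 0.17 ± 0.09, adjusted p = 0.74), but with both strains below the limit no fold is given. Of its 4 spots, those in the second print set passed the limit in both channels, and their ratios were 0.29 and 0.13.

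Ctr4 and Ctr5 form the copper importer of the plasma membrane and depend on each other to reach it. The spots of ctr5 read 23067 and 24020 in the mutant on array 1, against 65218.5 and 64297 in wild type. On array 2 they read 24533 and 30572.5 in the mutant, against 25494 and 31294.5 in wild type. The array 1 wild-type medians stood at the scanner's ceiling before subtraction, so the wild-type signal there has only a lower bound. The log2 ratio of ctr5 was -0.72 on array 1 and -0.36 on array 2, with a mean of -0.54 ± 0.25 (adjusted p = 0.237).

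For ctr4 the used spots read 10689 and 23022.5 in the mutant on array 1, against 34123.5 and 65151 in wild type, the last of them saturated. On array 2 a single ctr4 spot was used, at 24055 in the mutant and 22549 in wild type. The other, at 62 in the mutant and 19 in wild type, carried the quality code that led to spots being left out. The log2 ratio of ctr4 was -0.65 on array 1 and -0.25 on array 2 (mean -0.45 ± 0.28, adjusted p = 0.329). Its unsaturated spot on array 1 gave -0.55, and without saturated spots its mean was -0.40 (adjusted p = 0.356).

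Saturation bears on how these copper values are read. On array 1, 176 gene spots were saturated in the wild-type channel alone, with a median ratio of -0.13, and 125 were saturated in both channels, with a median of 0.49. The ctr5 spots, which are among the 176, stood at -0.75 and -0.68. Of the 176, 12 from other features (6.82%) lay below the higher of these, -0.68. A wild-type signal held at the ceiling makes a ratio of mutant over wild type too high before normalisation. What the ceiling did to the normalisation curve was not tested, so the normalised array 1 ratios of ctr5 are limits in neither direction. On array 2, where no used ctr4 or ctr5 spot was saturated, both genes were lower in the mutant, by 1.19-fold and 1.28-fold. With median centring in place of loess, array 1 turned to 0.09 for ctr4 and 0.22 for ctr5, though both means stayed below 0 (-0.22 and -0.23). Neither gene passed in any of the 12 alternatives that gave it a value. The nearest was ctr5 with mean signals (adjusted p = 0.0563), in a range of 0.0563 to 1.0.

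Ctr6 is a copper transporter of the vacuolar membrane, which releases stored copper to the cytosol. Its mean spot signals were 4227 and 6499 in the mutant, against 10239 and 5174 in wild type. The log2 ratio of ctr6 was 0.02 on array 1 and -0.10 on array 2, with a mean of -0.04 ± 0.08 (adjusted p = 0.951) and a 95% interval from -0.48 to 0.40. The genes ctr4, ctr5 and ctr6 are all known targets of Cuf1, and their means were -0.45, -0.54 and -0.04.

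Other genes of zinc handling did not pass as processed here. Of 8 genes searched, 7 were measured and 0 passed limma's test, with 4 at an unadjusted p under 0.05, as were 16% of all features. Their median was 0.45 beside 0.01 over all features. None of them was lower on both arrays, as were 29.6% of all features. Higher on both were 5, as were 30.1% of all features, and SPAC977.05c, described below, is among the 5. The gene zip3 (SPAP8A3.03), of the ZIP transporter family, stood at 0.60 ± 0.08 (adjusted p = 0.167), and print-tip loess brought it past the test (0.0443, in a range of 0.0443 to 1.0 over 12 alternatives). On array 1 zip3 rested on a spot of the first print set alone, so the SD understates its error. With code 3 kept, its array 1 value fell to 0.38 and its mean to 0.47. Neither strain had SPAC977.05c well above background, on array 1 or array 2, so its fitted mean of 1.07 ± 0.74 (adjusted p = 0.0599) gives no fold. Across 12 alternatives that mean ran between 0.48 and 3.30, and SPAC977.05c passed in 3 of them (print-tip loess, code 3 kept and deposited ratios without ties, adjusted p = 0.0274, 0.0137 and 0.00107). The gene has a close copy elsewhere in the genome, and the feature may not separate them. The repressor gene loz1 stood at 0.27 ± 0.11 (adjusted p = 0.575), and adh4, an alcohol dehydrogenase gene that Loz1 represses, stood at 0.27 on array 1 and -0.26 on array 2. Thus zrt1 and adh4, both known targets of Loz1, had means of -1.07 and 0.01.

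No gene for copper use and delivery passed. Of 14 features measured, 0 passed limma's test, with 1 at an unadjusted p under 0.05 (16% of all features), and 13 had means within 0.5 of 0 (86% of all features). Their median was -0.07. The exception was cao1, a copper amine oxidase gene, at 0.93 on array 1 and 0.31 on array 2 (0.62 ± 0.43, adjusted p = 0.205). The factor gene cuf1 stood at 0.20 ± 0.28 (adjusted p = 0.717). The genes for the copper pump Ccc2 and for copper and zinc superoxide dismutase, ccc2 and sod1, both stood at -0.23 without passing (adjusted p = 0.635 each).

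Among 5 genes of metal detoxification, where 0.977% of all tested features passed as lower, 1 fell. This was gsa1, which encodes glutathione synthetase, the enzyme that makes the precursor of metal-binding phytochelatins. Its spot read 1157 and 976 in the mutant, against 6307 and 1571 in wild type, and the mutant was well above background on array 1 and not on array 2. The log2 ratio of gsa1 was -0.93 on array 1 and -1.01 on array 2 (-0.97 ± 0.06, limma adjusted p = 0.0274), from a spot of the second print set alone on each array. It lost the call in 4 of 11 alternatives (median centring, plain subtraction, the deposited ratios and the second print set alone), with adjusted p between 0.000204 and 1.0. The gene of the preceding enzyme, gcs1, stood at -0.35 ± 0.33 (adjusted p = 0.47), and the phytochelatin synthase gene pcs2 (SPAC3H1.10) at 0.14 ± 0.34.

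**Figure D4:**
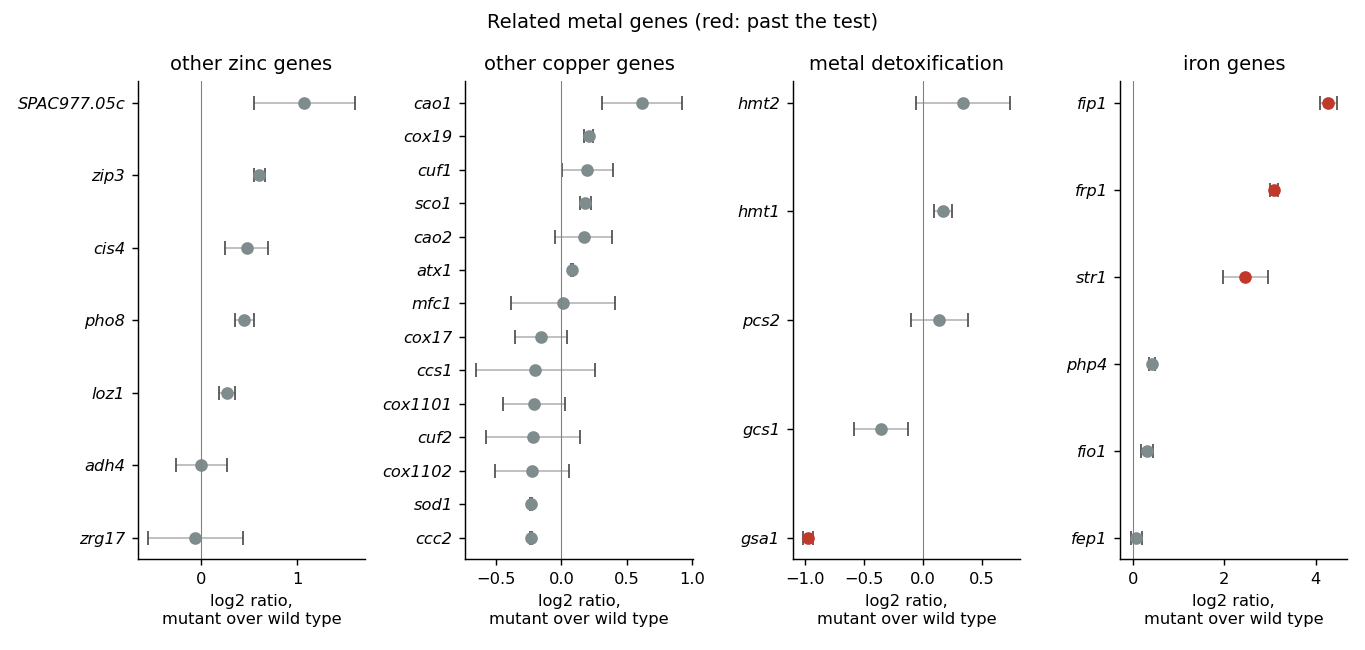
Mean log2 ratio of mutant over wild type (points) and the values of the 2 arrays (ticks) for other genes of zinc handling, copper use, metal detoxification and iron uptake; red points passed the test, and the x axes differ in range. Of 32 features 4 passed, gsa1 lower and the iron genes fip1, frp1 and str1 higher. Of all tested features 3.35% passed.

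Fet4 also belongs to iron uptake in its known function, so the iron genes were set beside it. Of 6 such genes 3 rose, where 2.37% of all tested features passed as higher. The permease gene fip1 stood at 4.28 ± 0.27 (adjusted p = 4.72e-06). The ferric reductase gene frp1 stood at 3.08 ± 0.12 (adjusted p = 2.66e-05). The siderophore transporter gene str1 stood at 2.46 ± 0.70 (adjusted p = 0.000494). On array 2 its first print set gave 3.29 and its second 0.64. Over 12 alternatives fip1, frp1 and str1 passed limma's test in 11, 11 and 10. None of these 3 genes passed with the authors' deposited ratios (adjusted p = 0.0739, 0.0739 and 0.0836). The second print set alone also ended the call of str1 (0.0663). The wild-type signal of frp1 was not well above background on either of the arrays, and that of str1 was not on array 2. The fitted fold of frp1 was 8.47, with an interval from 6.22 to 11.5, and is not a lower limit. Over 12 alternatives the fold of frp1 ran from 6.43 to 12.1. For fio1, the ferroxidase gene, the mean was 0.30 ± 0.18 (adjusted p = 0.534), with 1 of 2 spots saturated in the mutant on array 2 and 1 of 2 in wild type on array 1. The genes of the iron-responsive regulators Fep1 and Php4 stood at 0.07 ± 0.17 and 0.40 ± 0.09 (adjusted p = 0.912 and 0.365). These genes were listed with these results already known, so the count is a description.

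Features with the most similar pair of ratios were found by Euclidean distance over the 2 arrays. For zrt1 these were ubi5 (distance 0.08), snx12 (0.16) and SPAC750.01 (0.24). For fet4 they were mrs3, which encodes a mitochondrial carrier (0.05), pfl8, an adhesin gene (0.06), and cho1 (0.07). With 2 values a gene and 4813 features, such closeness is a matter of size and direction alone.

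Genes next to the 7 on the chromosome, by the order of the ASM294v3 gene table, did not pass. Of 14 flanking protein-coding genes 13 had a value, with 0 past limma's test, 3 at an unadjusted p under 0.05 (16% of all features), and means from -0.79 to 0.46. The lowest of these means was that of get3 beside ctr5 (-1.11 and -0.46 on the arrays, adjusted p = 0.109). In that table zrt1 overlaps sir2, which encodes a histone deacetylase, and sir2 stood at 0.09, with 0.33 on array 1 and -0.15 on array 2 (adjusted p = 0.884). A noncoding RNA overlaps 5 of the 7 genes in the table, and whether the array separates strands is not known here.

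**Figure D5:**
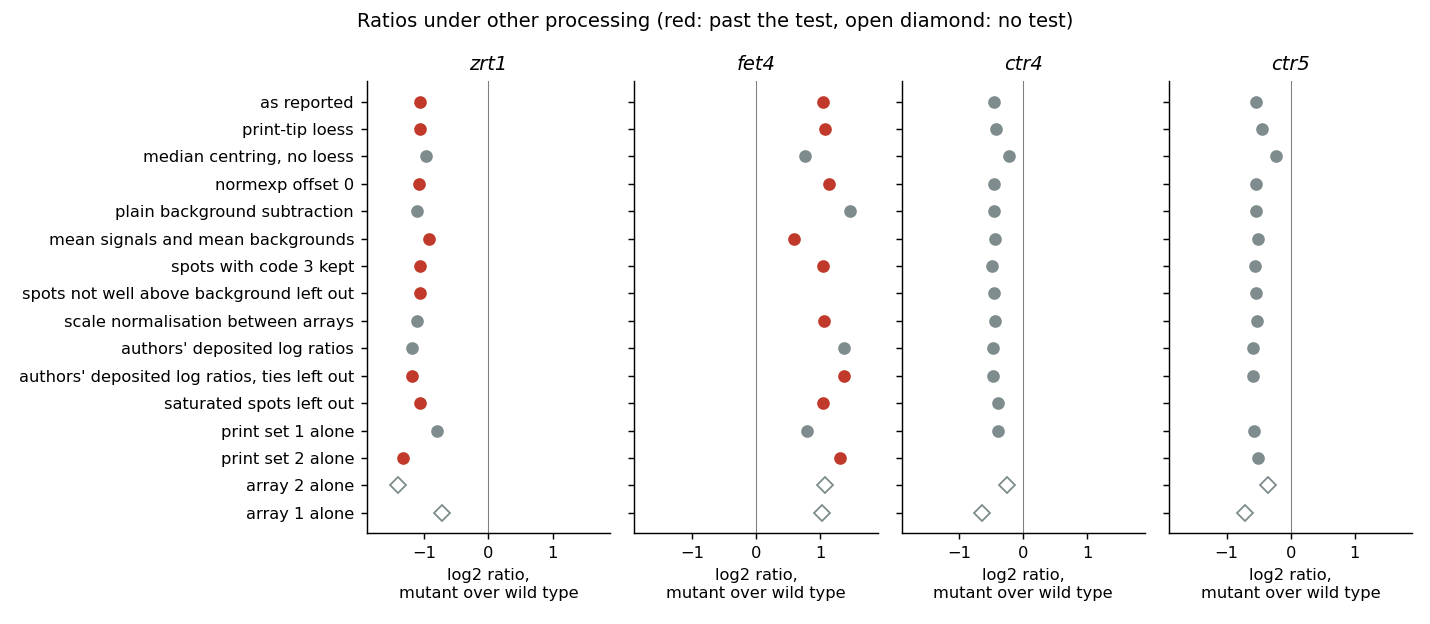
Mean log2 ratio of mutant over wild type for zrt1, fet4, ctr4 and ctr5 as reported and under each other processing; red points passed the test, grey points did not, and open diamonds are single arrays without a test. Every value of zrt1, ctr4 and ctr5 lies below 0 and every value of fet4 above 0, and a missing point means that the setting gave no value.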

How the data were processed

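Per the file headers, the scanner tables hold linear intensity readings (foreground and local background of 2 channels). They also give each spot and channel a quality score of 0, 2 or 3, deposited without its meaning. The authors deposited log10 ratios too, for which the design text names Lowess normalisation of each chip. Their scale and direction (first over second channel) were read from the values, which correlated with the scanner signals at r = 0.72 and 0.90 over spots coded 0 and had medians of -0.01 and 0.02. The image software is not known here.

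Background was removed from median signals by normexp with an offset of 50, and each array got 1 loess curve, with weight 0 for 1546 control or unnamed spots and for spots coded 3, which were then left out (905 and 765). Spots sharing a name were averaged, and 4813 of 4956 features had a value on both arrays. Log2 ratios were fitted with limma 3.58.1 in R 4.3.3 (lmFit, eBayes, Benjamini-Hochberg, threshold 0.05). The fit has 1 residual degree of freedom and a prior of 8.53. On simulated data the prior was poorly estimated at this size, and in some draws more calls were false than the threshold names, so calls near it are to be read with caution. P-values rest on the spread between these 2 arrays, combined with a prior spread estimated over all features. The fit has no dye term, so that spread holds dye effects as well as differences between the RNA preparations.

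A gene was well above background where the mean signal of its spots passed the 95th percentile of 96 bacterial control spots of that channel. The fold of 1.75 for fet4 used loess and Aquantile channel values. Of the features, 3467 were named by systematic name, 943 by symbol and 366 by synonym from the ASM294v3 table, and 180 kept the array's name. Alternatives were other background corrections, normalisations, signals, spot filters and the deposited ratios. The 7 genes and all lists were chosen with earlier results of these data known. Named beside the 7 genes are list members that passed or had a mean at least 0.5 from 0 with a like sign on both arrays, and the 3 nearest features of each gene that passed; loz1, adh4, cuf1, ccc2, sod1, gcs1, pcs2, fio1, fep1, php4, get3 and sir2 were added after their values were seen. SPBC1348.06c and cox23 were not analysed here.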

Additional observations from a re-analysis of the deposited data

How the results depend on the processing

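Both gene calls held with print-tip loess, a normexp offset of 0, mean signals, spots coded 3 kept and, in settings added after the data were seen, without saturated spots and with the second print set alone. Of the 7 genes, 0 passed limma's test with median centring, plain subtraction, the authors' deposited ratios and the first print set alone (an added setting), with 0, 2, 3 and 2 at an unadjusted p under 0.05. With scale normalisation 1 passed (fet4). Without dim spots, where fet4 had no value, 1 passed (zrt1). The 161 features called became 371 with print-tip loess (198 higher, 173 lower), 38 with median centring (33 and 5), 60 with plain subtraction (49 and 11), 373 with mean signals (194 and 179), 245 with code 3 kept, 86 and 104 with print set 1 and 2, and 0 with the deposited ratios (limma, 592 at an unadjusted p under 0.05). Without dim spots 123 of the calls were higher and 84 lower. The deposited ratios are rounded, and 72 features had equal values on both arrays. Without these, in an added setting, 251 features (151 higher, 100 lower) passed and both zrt1 and fet4 were called (limma adjusted p = 0.00191 and 0.000196). There the fitted prior became infinite, against 2.72 with the ties kept, and it was infinite with median centring too. Each p-value of these 2 settings rests on a spread shared by all features, and the gene's own spread has no weight. The calls without ties are therefore weak evidence for either gene. Of 32 related genes, 4 passed, against 0 with the deposited ratios (limma, 6 at an unadjusted p under 0.05), 6 with print-tip loess and 5 with code 3 kept. Fewer had a value in other settings. Without dim spots 1 of 25 passed, and gsa1, frp1 and str1 had no value. With print set 1 and 2 alone 2 of 26 and 2 of 27 passed, and 5 of 31 with deposited ties left out. Signs near 0 turned: zym1 was at -0.16 with median centring and -0.080 with mean signals, ctr6 at 0.047, 0.018 and 0.0025 with median centring, mean signals and print set 2, and zhf1 at -0.025 with the deposited ratios, with or without ties, and -0.066 with print set 1. With a single array, which allows no test, values ran from -0.082 to 0.18 for zhf1, -0.097 to 0.017 for ctr6, -1.42 to -0.72 for zrt1 and 1.03 to 1.08 for fet4. Unless stated, the cause was not tested. Each array holds both strains, so each ratio is already a paired comparison, and the fit tested the mean ratio of the 2 arrays against 0. The labels give a single group of ratios. With 2 arrays, precision is limited throughout.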
